A study of Homo sapiens with 30 samples.

Results

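The expression of 10 genes of fatty acid synthesis and desaturation was followed in A549 cells, an established human lung carcinoma line, after 24 h with a herbal ethanol extract or vehicle. They are SREBF1, the regulator; ACLY and ACSS2, which supply acetyl-CoA; ACACA and FASN, which build palmitate; ELOVL5 and ELOVL6, which lengthen fatty acids; and SCD, FADS1 and FADS2, which put double bonds into them. The genes were chosen by symbol, with earlier results of these data known. Each of the 10 symbols matched a single row among the 60675 gene rows of the table. All 10 were abundant enough to be among the 17701 genes tested.

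The extracts were of 4 herbal formulas of Korean medicine. Sibjeondaebo-tang and Palmul-tang have 3 libraries per dose, Samul-tang has 2 and Sagunja-tang has 1. The labels do not say that replicates came from separate cultures, so p-values cover only how far these libraries differ, and that spread may be technical. The doses, called low, medium and high from here on, were 20, 100 and 500 µg/mL for every formula. The vehicle group has 3 libraries, which makes 30 libraries in 13 groups. The vehicle was 0.1% DMSO according to the sample labels and 2% according to the series text. For the extract libraries the sample labels give no DMSO content, so whether their solvent matched the vehicle is not known. By their traditional composition, Palmul-tang joins the herbs of Samul-tang and Sagunja-tang, and Sibjeondaebo-tang adds further herbs to Palmul-tang. All groups are the same line, so they describe a single tumour line and no normal lung cell.

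Cytosolic citrate is split by ATP citrate lyase (ACLY) into acetyl-CoA, and ACSS2 makes the same metabolite from acetate. Acetyl-CoA carboxylase (ACACA) turns it into malonyl-CoA in the committed step, and fatty acid synthase (FASN) joins these units into palmitate. ELOVL6 extends palmitate to stearate, stearoyl-CoA desaturase (SCD) makes the monounsaturated fatty acids, and FADS2, ELOVL5 and FADS1 act in turn on polyunsaturated ones. SREBP-1, the product of SREBF1, is the transcription factor best known for driving these genes, and its sister SREBP-2 drives cholesterol synthesis. Alveolar type II cells, from which A549 is held to derive, make lipid for surfactant, and many tumour lines make much of their own fatty acid.

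Totals ran from 23986637 to 35159898 counts per library, and 15.0% to 20.0% of the counts were on mitochondrial genes. The defining epithelial markers were present, with all 5 tested and summing to 6067 to 7794 CPM per library. CPM here stands for counts scaled to a common library size, after TMM scaling. Surfactant genes SFTPA1, SFTPA2, SFTPB and SFTPC stayed below 1 CPM in every library, so these 4 of 9 listed markers of type II cells were at or near 0. Of the 9, 6 passed the filter, and the list summed to 32.4 to 44.3 CPM per library. ADIPOQ and APOA2 were at 0 in every library, and 4 of 6 leukocyte markers (PTPRC, CD3E and LYZ among them), 3 of 4 endothelial and 3 of 4 hepatocyte markers stayed below 1 CPM. The summed lists ran from 15.5 to 30.01 CPM for leukocytes, 14.3 to 20.1 CPM for fibroblasts, 17.1 to 21.7 CPM for endothelium, 4.05 to 7.03 CPM for adipocytes and 26.4 to 51.4 CPM for hepatocytes. The labels give all libraries the same batch letter, but the library codes begin with a prefix of their own for vehicle, another for Samul-tang and Sagunja-tang, and yet another for Palmul-tang and Sibjeondaebo-tang, which the labels do not explain. Whatever the prefix stands for and the treatment itself cannot be told apart in any comparison with vehicle, nor when Sibjeondaebo-tang or Palmul-tang is set against Samul-tang or Sagunja-tang. Comparisons between doses of a formula, and between Sibjeondaebo-tang and Palmul-tang, stay within a prefix, although all groups share the estimate of spread.

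Per kilobase of exon, SCD was the most abundant of the 10 over all libraries, at 174 CPM per kb. FASN followed with 134 and ACLY with 94.4 CPM per kb. ELOVL5 stood at 58.7, FADS2 at 47.6 and FADS1 at 41.2 CPM per kb. ACACA had 19.2, SREBF1 14.6, ELOVL6 11.3 and ACSS2 10.4 CPM per kb. The desaturases and the synthase were thus far more abundant than the regulator and the elongase of palmitate on this scale.

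Between the high and the low dose, ELOVL6 fell in Sibjeondaebo-tang, Palmul-tang and Samul-tang, and ACACA fell in Sibjeondaebo-tang and Palmul-tang. FASN and ACSS2 fell with the dose in Palmul-tang, and FADS2 rose with it in Sibjeondaebo-tang. These changes were small, from -15.6% to 8.18% of the mean at the low dose. The calls for ACACA and FASN in Palmul-tang and for FADS2 in Sibjeondaebo-tang were each lost in fits with a single library left out. The ELOVL6 call in Samul-tang rests on 2 libraries per dose. Against vehicle, FASN and SREBF1 were lower at every dose of these formulas, the lowest included, with mean differences of -31.0% to -20.2%. Library prefix and treatment cannot be told apart in these comparisons. In bulk RNA a change in the share of cells and a change in RNA per cell cannot be told apart.

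In numbers, 3 of the 10 genes passed between the high and the low dose of Sibjeondaebo-tang, 1 higher and 2 lower. That threshold was an adjusted p under 0.05 in edgeR's quasi-likelihood test, and 38.4% of all 17701 genes passed it in the same comparison, 18.5% higher and 19.9% lower. Between the high and the low dose of Palmul-tang 4 of 10 passed, all lower, against 3.47% of all genes (1.46% higher and 2.02% lower). Between the high and the low dose of Samul-tang 1 of 10 passed, lower, against 1.34% of all genes (0.604% higher and 0.74% lower). The share in Sibjeondaebo-tang was thus near that of all genes, and the share in Palmul-tang was above it. The genes were chosen with earlier results of these data known, so the latter is a description and no independent support. With any 1 library left out, the count was 2 to 4 in Sibjeondaebo-tang, 2 to 3 in Palmul-tang and 0 in Samul-tang. From the low to the medium dose no member passed in the 3 formulas, where 0.0113% of all genes passed for Sibjeondaebo-tang, 0.00565% for Palmul-tang and 0% for Samul-tang. At an unadjusted p under 0.05 that step counted 0 members for Sibjeondaebo-tang, 2 for Palmul-tang, both lower, and 0 for Samul-tang. From the medium to the high dose of Sibjeondaebo-tang, ACACA and ELOVL6 fell and FADS2 rose (30.6% of all genes passed, 14.2% higher and 16.4% lower). From the medium to the high dose of Palmul-tang and Samul-tang no member passed, where 0.859% of all genes passed for Palmul-tang (0.237% higher and 0.621% lower) and 0.339% for Samul-tang (0.169% in each direction). At an unadjusted p under 0.05 the counts were 5 members for Palmul-tang and 1 for Samul-tang, all lower.

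**Figure D1:**
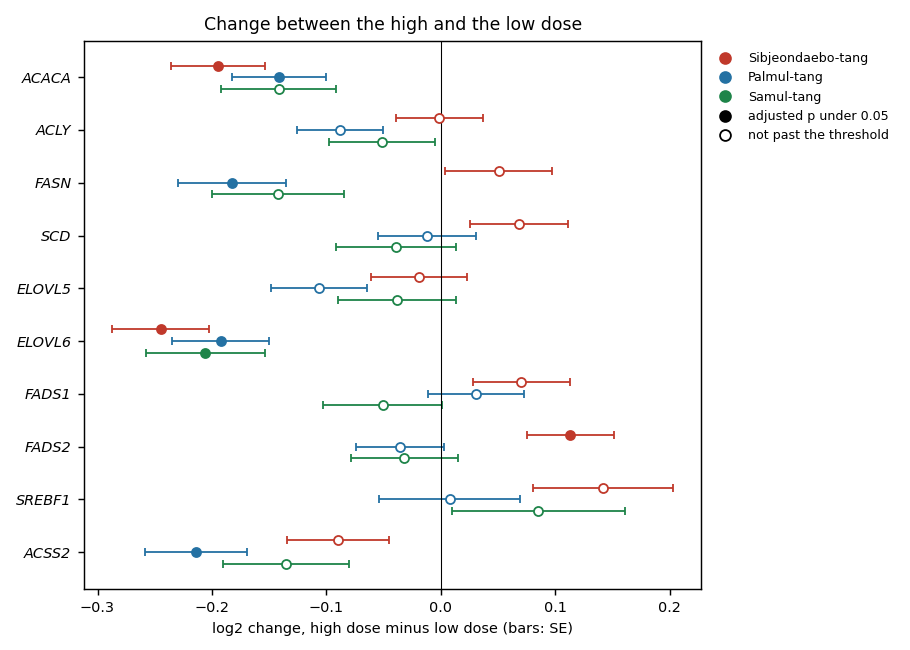
Log2 change between the high and the low dose for each of the 10 genes in 3 formulas, with bars for the SE, and filled points where the adjusted p was under 0.05. ELOVL6 lies left of zero with a filled point in every formula, at -0.24, -0.19 and -0.21, while FASN lies right of zero for Sibjeondaebo-tang and left of it for the other formulas.

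SREBF1 encodes SREBP-1, a transcription factor held in the endoplasmic reticulum membrane until it is cleaved. High-dose libraries read 119, 131 and 120.0 CPM in Sibjeondaebo-tang, 111, 119.5 and 109 CPM in Palmul-tang and 119 and 116 CPM in Samul-tang, against 167, 154 and 143 CPM in vehicle. All 27 extract libraries, at 101 to 131 CPM, were below the lowest vehicle library. The difference from vehicle was -0.33 on the log2 scale for high-dose Sibjeondaebo-tang (SE 0.06, adjusted p = 8.94e-05). It was -0.45 (adjusted p = 2.63e-06) for high-dose Palmul-tang and -0.39 (adjusted p = 0.000117) for high-dose Samul-tang. At the low dose the differences from vehicle were -0.47 (adjusted p = 1.17e-06) for Sibjeondaebo-tang, -0.46 (adjusted p = 2.12e-06) for Palmul-tang and -0.48 (adjusted p = 1.04e-05) for Samul-tang. Within Sibjeondaebo-tang the high dose read 119, 131 and 120.0 CPM, against 120.5, 106 and 108 CPM at the low dose, so the groups overlapped. That change missed the threshold (log2 change 0.14, SE 0.06, adjusted p = 0.07), with a 95% interval of 0.02 to 0.27. The missed call rested on single libraries, since the adjusted p was 0.0101 without low-dose replicate 1, 0.0341 without high-dose replicate 1 and 0.0437 without high-dose replicate 3. It was also 0.00429 with no filter on low counts and 0.0499 with only the groups compared. Palmul-tang (0.01, interval -0.12 to 0.13) and Samul-tang (0.09, interval -0.07 to 0.24) also missed it. SREBF1 spans chromosome 17 from 17810399 to 17837002 on the minus strand (GRCh38) and shares exon positions with RAI1 on the other strand. The labels name stranded libraries, but whether the counting used the strand is not given in the sources used here.

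ACLY, which feeds acetyl-CoA from citrate into the pathway, was lower than in vehicle at the high dose of all 3 replicated formulas. High-dose Sibjeondaebo-tang libraries read 506, 483 and 492 CPM, high-dose Palmul-tang libraries 449, 465 and 471 CPM and high-dose Samul-tang libraries 475 and 471 CPM, against 532, 522 and 547 CPM in vehicle. None of these libraries reached the lowest vehicle value. The log2 difference from vehicle was -0.11 (adjusted p = 0.0159) for high-dose Sibjeondaebo-tang, -0.21 (adjusted p = 4.91e-05) for high-dose Palmul-tang and -0.17 (adjusted p = 0.00214) for high-dose Samul-tang. At the low dose it was -0.11 (adjusted p = 0.0189) for Sibjeondaebo-tang, -0.12 (adjusted p = 0.011) for Palmul-tang and -0.12 (adjusted p = 0.0244) for Samul-tang. Without vehicle replicate 3 the adjusted p was 0.0844 for high-dose Sibjeondaebo-tang, and at the low dose 0.0845 for Sibjeondaebo-tang, 0.06 for Palmul-tang and 0.0811 for Samul-tang. High-dose Sibjeondaebo-tang also lost the call without its replicate 2 (0.18) or 3 (0.104). At the low dose the call was lost without Sibjeondaebo-tang replicate 2 (0.0775), Palmul-tang replicate 2 (0.103) or 3 (0.0553), and Samul-tang replicate 2 (0.142) or 3 (0.0977). These 4 calls were also lost with no filter on low counts, at 0.238 for high-dose Sibjeondaebo-tang and, for the low doses, 0.121 for Sibjeondaebo-tang, 0.0733 for Palmul-tang and 0.0755 for Samul-tang. With only the groups compared they were 0.128 for high-dose Sibjeondaebo-tang and, for the low doses, 0.115 for Sibjeondaebo-tang, 0.0661 for Palmul-tang and 0.144 for Samul-tang. ACLY spans chromosome 17 from 41866908 to 41930542 on the minus strand and shares exon positions with AC125257.2 on the other strand.

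ACSS2, the acetate-using enzyme, fell with the dose of Palmul-tang. It read 52.2, 48.0 and 52.2 CPM at the high dose, against 57.7, 61.0 and 58.0 CPM at the low dose, with no overlap (log2 change -0.21, SE 0.04, adjusted p = 0.00274). The medium dose lay between them at 54.0, 54.8 and 55.6 CPM. High-dose Sibjeondaebo-tang read 55.2, 54.9 and 54.6 CPM, against 57.3, 59.3 and 58.7 CPM at the low dose, which did not overlap either but missed the threshold (-0.09, adjusted p = 0.114). Samul-tang had 52.7 and 51.8 CPM at the high dose and 57.9 and 56.9 CPM at the low dose, and also missed it (-0.13, adjusted p = 0.246). Against vehicle at 55.1, 58.3 and 62.1 CPM, the ACSS2 difference was -0.20 (adjusted p = 0.000591) in high-dose Palmul-tang and -0.16 (adjusted p = 0.0158) in high-dose Samul-tang. In high-dose Sibjeondaebo-tang it was -0.09 (adjusted p = 0.111) and missed the threshold, but had an adjusted p of 0.0329 without vehicle replicate 1. The Samul-tang call was lost when either Samul-tang library or vehicle replicate 3 was left out, with adjusted p from 0.0582 to 0.121, and also with no filter on low counts (0.0558) or with only the groups compared (0.0718). At the low dose the difference from vehicle was -0.00 for Sibjeondaebo-tang, 0.01 for Palmul-tang and -0.03 for Samul-tang, none past the threshold. The gene spans chromosome 20 from 34872146 to 34927962 on the plus strand.

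ACACA, the carboxylase of the committed step, was higher than in vehicle at the low dose, and at the high dose no difference from vehicle passed. In Sibjeondaebo-tang it read 228, 231 and 228 CPM at the high dose and 260.1, 265 and 262 CPM at the low dose. Libraries of the medium dose read 253, 245 and 252 CPM, between the others. The change between the high and the low dose was -0.20 (SE 0.04, adjusted p = 0.000306), larger than the spread between libraries in either group.
Palmul-tang had 236, 237 and 239 CPM at the high dose, against 270.2, 257 and 258 CPM at the low dose (log2 change -0.14, SE 0.04, adjusted p = 0.0484). Its adjusted p lay just under the threshold and was between 0.0615 and 0.177 when any single library of the 6 was left out. It was 0.122 with only the groups compared and 0.0675 in a fit without high-dose Sibjeondaebo-tang. Samul-tang had 234 and 247 CPM at the high dose and 260.3 and 271 CPM at the low dose, a change that missed the threshold (-0.14, adjusted p = 0.169). The vehicle libraries spread more widely, at 239, 214 and 248 CPM. Low-dose levels were above vehicle by 0.17 (adjusted p = 0.00151) in Sibjeondaebo-tang, 0.16 (adjusted p = 0.00209) in Palmul-tang and 0.18 (adjusted p = 0.00234) in Samul-tang. The last of these had an adjusted p of 0.0794 without Samul-tang low replicate 3. At the high dose the difference from vehicle was -0.03 for Sibjeondaebo-tang, 0.02 for Palmul-tang and 0.04 for Samul-tang.

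FASN, the synthase that makes palmitate, spans chromosome 17 from 82078333 to 82098332 on the minus strand. All 27 extract libraries, between 1039 and 1354 CPM, lay below the 3 vehicle libraries, at 1678, 1506 and 1634 CPM. High-dose Sibjeondaebo-tang averaged 1264 ± 26.7 CPM, high-dose Palmul-tang 1115 ± 70.6 CPM and vehicle 1606 ± 89.0 CPM (SD, n = 3 each). High-dose Samul-tang averaged 1109 ± 10.4 CPM (SD, n = 2). The log2 differences from vehicle at the high dose were -0.35 (adjusted p = 4.09e-07) for Sibjeondaebo-tang, -0.53 (adjusted p = 8.59e-10) for Palmul-tang and -0.53 (adjusted p = 2.25e-08) for Samul-tang. At the low dose they were -0.40 (adjusted p = 1.22e-07) for Sibjeondaebo-tang, -0.34 (adjusted p = 1.17e-06) for Palmul-tang and -0.39 (adjusted p = 2.39e-06) for Samul-tang.
The dose change of FASN differed between Sibjeondaebo-tang and Palmul-tang. In Palmul-tang it read 1039, 1179 and 1127 CPM at the high dose, against 1298, 1229 and 1270.3 CPM at the low dose, without overlap (log2 change -0.18, SE 0.05, adjusted p = 0.0197). In Sibjeondaebo-tang the high dose read 1285, 1273 and 1234 CPM, against 1292, 1162 and 1208 CPM at the low dose, so the groups overlapped (log2 change 0.05, SE 0.05, adjusted p = 0.425). The dose change in Sibjeondaebo-tang exceeded that in Palmul-tang by 0.23 on the log2 scale (SE 0.07, adjusted p = 0.0148). Without replicate 1 of high-dose Palmul-tang, its lowest library for FASN, that difference was 0.19 with an adjusted p of 0.0605, and the change within Palmul-tang was -0.13 with an adjusted p of 0.216. The change within Palmul-tang also had an adjusted p of 0.0766 without low-dose replicate 1, 0.0652 without low-dose replicate 3 and 0.0967 with only the groups compared.

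**Figure D2:**
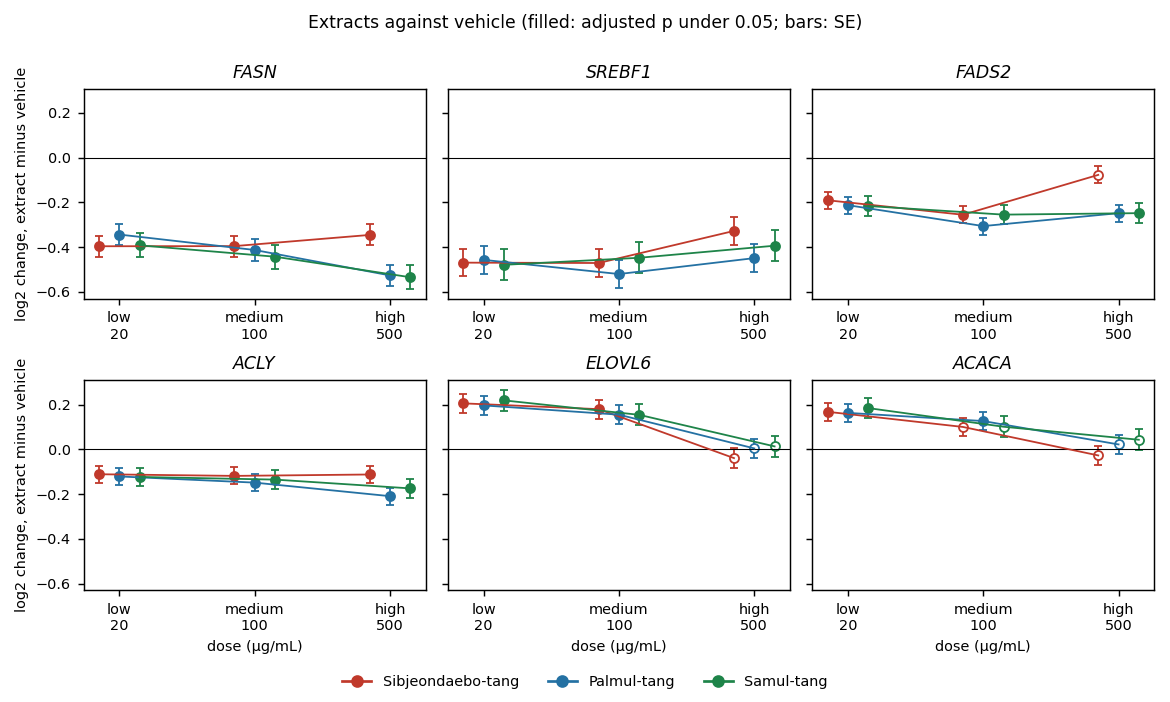
Log2 change against vehicle for 6 of the genes at the low, medium and high dose of 3 formulas, with bars for the SE and filled points where the adjusted p was under 0.05. FASN, SREBF1 and ACLY lie below zero at every dose, whereas ELOVL6 and ACACA lie above zero at the low dose, for ELOVL6 at 0.21, 0.20 and 0.22, and near zero at the high dose.

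ELOVL6, the elongase that turns palmitate into stearate, was the only member that passed between the high and the low dose in all 3 replicated formulas. Sibjeondaebo-tang libraries read 72.9, 71.4 and 77.3 CPM at the high dose, against 86.1, 89.0 and 87.6 CPM at the low dose (log2 change -0.24, SE 0.04, adjusted p = 2.7e-05). Palmul-tang libraries read 79.8, 72.5 and 76.0 CPM at the high dose, against 88.2, 87.9 and 84.8 CPM at the low dose (log2 change -0.19, SE 0.04, adjusted p = 0.00482). Samul-tang libraries read 74.5 and 78.7 CPM at the high dose, against 85.9 and 90.8 CPM at the low dose (log2 change -0.21, SE 0.05, adjusted p = 0.0366). High-dose and low-dose libraries did not overlap in any of the 3. Leaving out any single library kept the calls in Sibjeondaebo-tang and Palmul-tang, while the call in Samul-tang was lost without any of its 4 libraries, with adjusted p from 0.052 to 0.391. The medium dose still read 87.8, 83.7 and 86.5 CPM in Sibjeondaebo-tang, 86.9, 81.4 and 85.3 CPM in Palmul-tang and 84.2 and 84.8 CPM in Samul-tang, near the low dose. Vehicle libraries read 73.6, 75.2 and 79.2 CPM, a range that the high-dose libraries straddled. Low-dose levels exceeded vehicle by 0.21 (adjusted p = 0.000256) in Sibjeondaebo-tang, 0.20 (adjusted p = 0.000466) in Palmul-tang and 0.22 (adjusted p = 0.000644) in Samul-tang. Without Samul-tang low replicate 3 the last of these had an adjusted p of 0.0524. The 95% interval of the high-dose difference from vehicle was -0.13 to 0.05 for Sibjeondaebo-tang, -0.08 to 0.09 for Palmul-tang and -0.08 to 0.11 for Samul-tang.

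The group means of ELOVL6 and ACACA on the log2 scale were correlated at r = 0.97 over the 13 groups, a description of points that share libraries and scaling. The bases before RefSeq starts of both genes are shown because these 2 members moved together, with the 2 of 3 ACACA windows that hold a motif, and those of SCD because its highest value was in Sagunja-tang. Sequences are from RefSeq on GRCh38.p14, read 5′ to 3′ on the strand of the gene, and cover the 250 bases before an annotated start, with capitals for CCAAT or its reverse complement ATTGG.
ELOVL6, chr4:110198616-110198865, minus strand: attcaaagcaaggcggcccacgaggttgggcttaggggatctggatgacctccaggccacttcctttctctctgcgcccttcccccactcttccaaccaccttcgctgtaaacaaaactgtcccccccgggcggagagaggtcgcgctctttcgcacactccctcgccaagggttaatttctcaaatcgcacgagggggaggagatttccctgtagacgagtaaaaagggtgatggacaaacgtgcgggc
ACACA, chr17:37299768-37300017, minus strand: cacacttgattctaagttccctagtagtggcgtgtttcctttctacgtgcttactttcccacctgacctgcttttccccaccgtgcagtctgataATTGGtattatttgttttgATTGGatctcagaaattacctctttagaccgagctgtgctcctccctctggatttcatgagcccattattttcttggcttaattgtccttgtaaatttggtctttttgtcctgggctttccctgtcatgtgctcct
ACACA, chr17:37359097-37359346, minus strand: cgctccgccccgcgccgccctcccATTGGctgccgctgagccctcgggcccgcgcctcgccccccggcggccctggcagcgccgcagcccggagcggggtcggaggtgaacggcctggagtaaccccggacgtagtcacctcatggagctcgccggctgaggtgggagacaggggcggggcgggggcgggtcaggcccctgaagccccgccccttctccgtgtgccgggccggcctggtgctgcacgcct
SCD, chr10:100346983-100347232, plus strand: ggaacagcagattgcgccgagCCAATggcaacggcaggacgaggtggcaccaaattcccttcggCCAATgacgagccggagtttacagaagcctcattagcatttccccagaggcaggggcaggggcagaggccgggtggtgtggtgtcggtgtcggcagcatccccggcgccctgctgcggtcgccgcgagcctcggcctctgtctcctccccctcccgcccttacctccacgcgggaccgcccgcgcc
Both strands were searched for 3 motifs in the windows of 9 members. FASN had no window in the source used and was not searched. CCAAT, the box bound by the factor NF-Y, was present for 5 of the 9 (ACACA, ACLY, SCD, ELOVL5 and ACSS2), against 37.0% of the 27305 gene symbols in the table. In the first ACACA window it begins 155 and 136 bases before the start, in the second 226 bases, and in the SCD window 229 and 186 bases before it. The ELOVL6 window holds none. CACGTG, an E-box, was present for ELOVL5 alone, against 7.73% of symbols. TCACNCCAC, a form of the sterol regulatory element bound by SREBPs, was in none of the 9 and in 1.09% of symbols. None of the 3 motifs contains another. In GENCODE 29 on GRCh38, ELOVL6 spans chromosome 4 from 110045846 to 110199199 and ACACA spans chromosome 17 from 37084988 to 37406818, both on the minus strand. SCD spans chromosome 10 from 100347124 to 100364834 on the plus strand. By these bounds the ELOVL6 window and both ACACA windows shown lie inside their genes, and the SCD window reaches into the gene. The third ACACA window, chr17:37406837-37407086, lies outside the gene, just upstream of its 5′ bound on the minus strand. It holds none of the motifs.

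ELOVL5, which lengthens polyunsaturated fatty acids, ran between 205 and 241 CPM in the extracts and between 209 and 212 CPM in vehicle. Of the 27 extract libraries, 26 lay above all vehicle libraries and 1 below them. It exceeded vehicle at the low dose of Sibjeondaebo-tang by 0.11 (adjusted p = 0.0353) and of Palmul-tang by 0.13 (adjusted p = 0.0116). The first call was lost when any single vehicle library, or Sibjeondaebo-tang low replicate 1, was left out (adjusted p from 0.0567 to 0.258), and with only the groups compared (0.109). The second had an adjusted p of 0.0634 without Palmul-tang low replicate 3. Samul-tang low read 215 and 236 CPM and missed the threshold, but passed without low replicate 2 (adjusted p = 0.0287). High-dose Sibjeondaebo-tang against vehicle also missed it, but passed with DESeq2 (0.0385), with no filter on low counts (0.0403) and without its replicate 1 (0.0414). No dose change passed for ELOVL5, which spans chromosome 6 from 53267398 to 53349179 on the minus strand.

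SCD, the stearoyl-CoA desaturase, had no difference past the threshold between doses or from vehicle in the replicated formulas. High-dose libraries read 985, 952 and 980.4 CPM in Sibjeondaebo-tang, 927, 943 and 899 CPM in Palmul-tang and 883 and 929 CPM in Samul-tang, against 923, 913 and 962 CPM in vehicle. Each of these ranges overlapped that of vehicle. The 95% interval of the difference from vehicle at the high dose was -0.03 to 0.15 for Sibjeondaebo-tang, -0.10 to 0.07 for Palmul-tang and -0.14 to 0.06 for Samul-tang. FASN was lower than vehicle in all these groups.

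FADS2, the first desaturase of the polyunsaturated pathway, was lower than vehicle in all groups of the replicated formulas except high-dose Sibjeondaebo-tang, where it missed the threshold. Vehicle libraries read 607, 585 and 585 CPM. In Sibjeondaebo-tang the gene read 532, 511 and 515 CPM at the low dose, 503, 486 and 500.0 CPM at the medium dose and 567, 553 and 565 CPM at the high dose. The high dose thus lay above both others without overlap. Its rise was 0.11 (adjusted p = 0.0186) over the low dose and 0.18 (adjusted p = 0.000573) over the medium dose. The first of these had an adjusted p of 0.069 without low-dose replicate 2 and 0.0534 without low-dose replicate 3. Palmul-tang libraries read 500.3, 513 and 483 CPM at the high dose, against 536, 497 and 501 CPM at the low dose, which overlapped (-0.04, adjusted p = 0.761). Samul-tang libraries read 512 and 486 CPM at the high dose, against 514 and 505 CPM at the low dose (-0.03, adjusted p = 0.84). At the high dose the difference from vehicle was -0.08 (adjusted p = 0.108) for Sibjeondaebo-tang, -0.25 (adjusted p = 6.68e-06) for Palmul-tang and -0.25 (adjusted p = 6.3e-05) for Samul-tang.

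FADS1, the last desaturase of that pathway, read 463, 432 and 440.2 CPM in high-dose Sibjeondaebo-tang, against 396, 399 and 427 CPM in vehicle (log2 change 0.13, SE 0.04, adjusted p = 0.0154). The adjusted p was 0.0795 without vehicle replicate 1 and 0.0576 without replicate 1 of the high dose. Between doses FADS1 did not pass in any formula. In Palmul-tang it read 429, 424 and 419 CPM at the high dose and 438, 411 and 396 CPM at the low dose, and in Samul-tang 403 and 403 CPM at the high dose and 417 and 419 CPM at the low dose. FADS1 (61799625 to 61829318, minus strand) and FADS2 (61792980 to 61867354, plus strand) lie on chromosome 11 with shared exon positions, and FADS2 also shares them with FEN1 on its own strand. Their counts could mix where the counting did not separate strands.

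**Figure D3:**
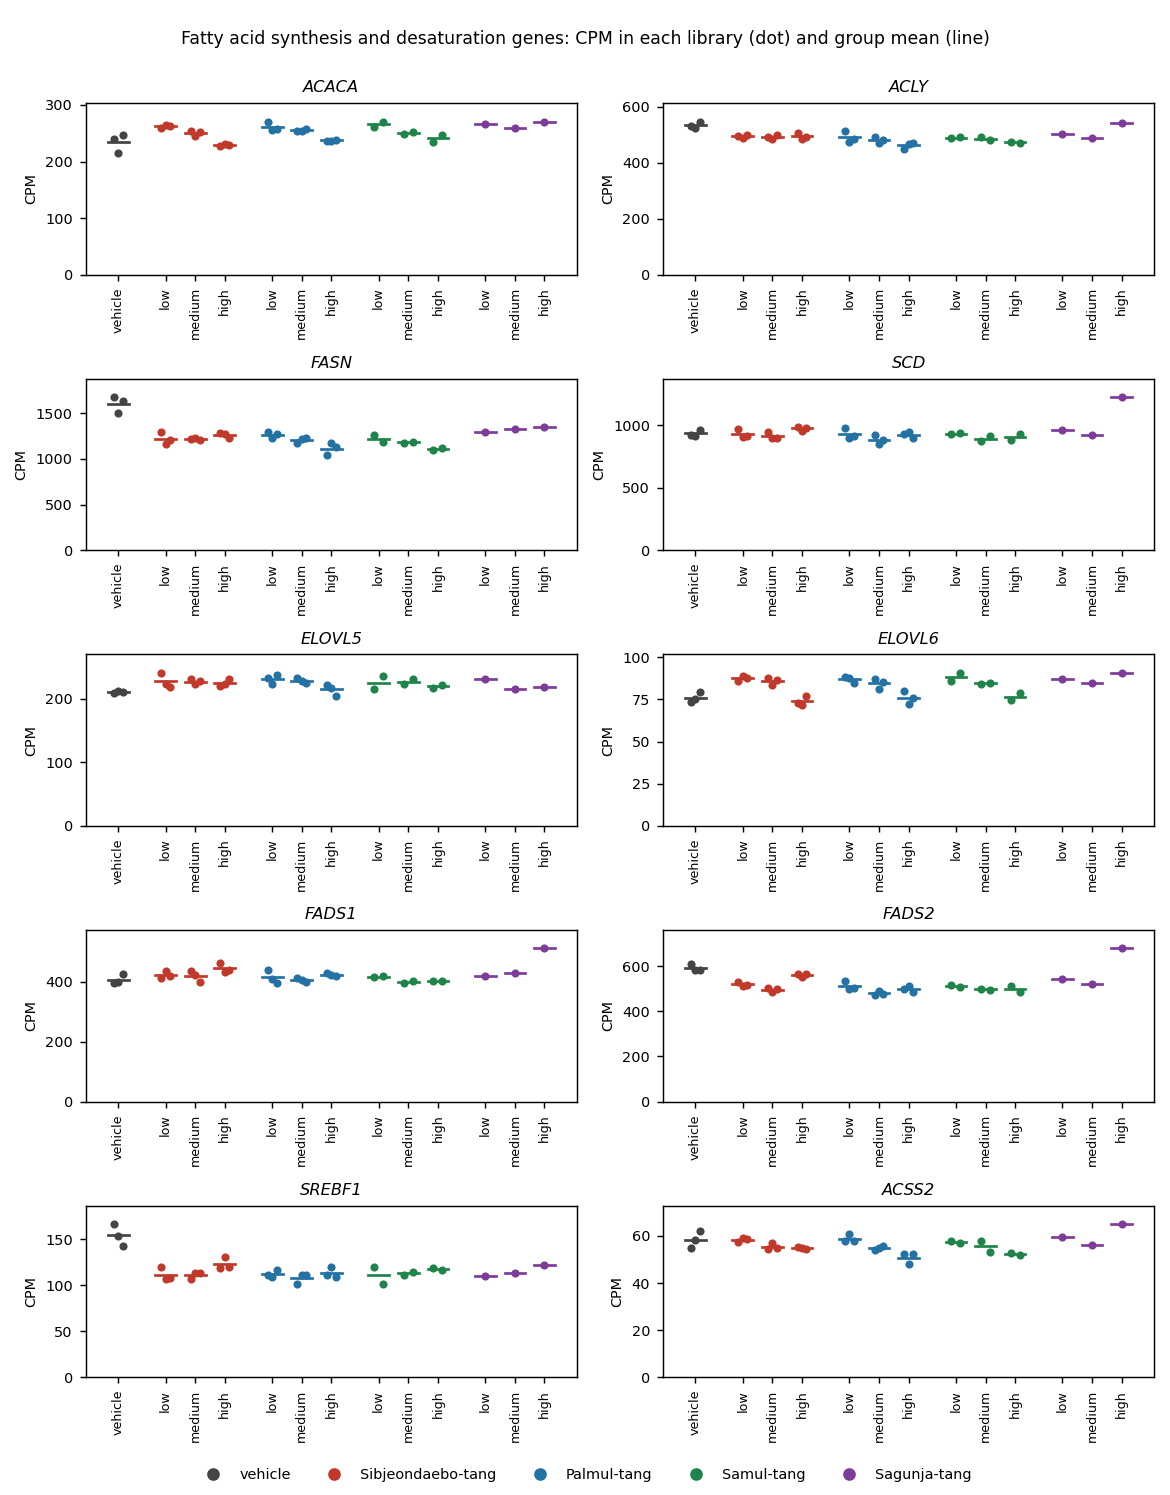
CPM of each of the 10 genes in each of the 30 libraries (dots), with group means as lines, for vehicle and the low, medium and high dose of 4 formulas, on axes that start at 0. FASN and SREBF1 dots of every extract lie below those of vehicle. ELOVL6 and ACACA means are lower at the high dose than at the low and the medium dose of the replicated formulas. The ACACA change between the high and the low dose of Samul-tang missed the threshold. The single high-dose Sagunja-tang library is the highest for SCD, FADS1 and FADS2.

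Counting across the family, 4 members passed against vehicle at the high dose of Sibjeondaebo-tang, 1 higher and 3 lower, where 41.8% of all genes passed, 20% higher and 21.8% lower. For high-dose Palmul-tang 5 passed, all lower, against 37.1% of all genes (19% higher and 18.1% lower). For high-dose Samul-tang 5 passed, all lower, against 29.2% of all genes (15.3% higher and 13.9% lower). At the low dose 3 members were higher and 4 lower for Sibjeondaebo-tang (of all genes 36.9%, 18.6% higher and 18.2% lower). They were 3 higher and 4 lower for Palmul-tang (36%, 18.2% higher and 17.8% lower), and 2 higher and 4 lower for Samul-tang (30.7%, 15.6% higher and 15.1% lower). At the medium dose 2 were higher and 4 lower for Sibjeondaebo-tang (36.8%, 18.6% higher and 18.1% lower). They were 3 higher and 4 lower for Palmul-tang (37.9%, 19.4% higher and 18.5% lower), and 1 higher and 4 lower for Samul-tang (24%, 12.3% higher and 11.7% lower). ACLY, FASN, FADS2 and SREBF1 were the 4 lower genes at the low and the medium dose of each of these formulas. All these comparisons share the 3 vehicle libraries.

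At the high dose 3 of the 10 members passed between Sibjeondaebo-tang and Palmul-tang, and 3 between Sibjeondaebo-tang and Samul-tang. All were higher in Sibjeondaebo-tang. Counted in either direction, the share against Palmul-tang was near that of all genes. In Sibjeondaebo-tang FASN averaged 1264 ± 26.7 CPM, against 1115 ± 70.6 CPM in Palmul-tang (log2 change 0.18, SE 0.05, adjusted p = 0.00361). FADS2 averaged 562 ± 7.83 CPM in Sibjeondaebo-tang and 499 ± 14.7 CPM in Palmul-tang (log2 change 0.17, SE 0.04, adjusted p = 0.000873). ACLY averaged 494 ± 11.8 CPM in Sibjeondaebo-tang and 462 ± 11.7 CPM in Palmul-tang (SD, n = 3 each), and passed narrowly (log2 change 0.10, SE 0.04, adjusted p = 0.0497). Libraries of the 2 formulas did not overlap for these 3 genes, and 30.3% of all genes passed in this comparison, 14.3% higher and 16% lower. The ACLY call was lost without Sibjeondaebo-tang high replicate 1, Palmul-tang high replicate 1 or Palmul-tang high replicate 2 (adjusted p from 0.0755 to 0.183), and with only the groups compared (0.151). SREBF1, which missed the threshold, passed with no filter on low counts (0.00929). ACSS2, which missed it too, passed with RLE scaling (0.0479), with no filter (0.0374), without mitochondrial genes (0.0475) and in a fit without vehicle (0.0392). It also passed without Sibjeondaebo-tang high replicate 2 (0.0456) or 3 (0.0443) or Palmul-tang high replicate 3 (0.0417). Against high-dose Samul-tang, high-dose Sibjeondaebo-tang was higher for FASN by 0.19 (adjusted p = 0.00965), for FADS2 by 0.17 (adjusted p = 0.00439) and for FADS1 by 0.14 (adjusted p = 0.0284), with 21.3% of all genes passing (9.51% higher and 11.8% lower). These 3 calls rest on 2 Samul-tang libraries. Without Samul-tang high replicate 3 the adjusted p was 0.0667 for FASN, 0.126 for FADS2 and 0.144 for FADS1, and without Samul-tang high replicate 2 it was 0.0766 for FASN and 0.124 for FADS1. FADS1 was also lost without Sibjeondaebo-tang high replicate 1, at 0.0924. Between high-dose Palmul-tang and Samul-tang no member passed, in edgeR's test or at an unadjusted p under 0.05, and 0.192% of all genes passed. At the medium and the low dose no gene of all 17701 passed between any pair of these formulas in edgeR's test, while between 426 and 1303 had an unadjusted p under 0.05. For FASN the difference between Sibjeondaebo-tang and Palmul-tang at the low dose was -0.05, with an interval of -0.15 to 0.04.

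The difference of the dose change between Sibjeondaebo-tang and Palmul-tang passed for FASN alone among the 10 genes, where 14.9% of all genes passed (5.59% higher and 9.29% lower). FADS2 had 0.15 (adjusted p = 0.06) and ACSS2 0.12 (adjusted p = 0.198). The FADS2 difference passed without Sibjeondaebo-tang low replicate 1 (0.0335) or high replicate 2 (0.0346), or without Palmul-tang high replicate 2 (0.043), low replicate 2 (0.0376) or low replicate 3 (0.0487). ELOVL6 had -0.05 with a 95% interval of -0.17 to 0.07, and ACACA -0.05 with -0.17 to 0.06, neither past the threshold. Between Sibjeondaebo-tang and Samul-tang the FASN difference was 0.19 and missed the threshold (adjusted p = 0.116). There 0 of 10 members passed and 2 had an unadjusted p under 0.05, while 6.34% of all genes passed.

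Sagunja-tang has 1 library per dose, so its values have no replicate and no test. SCD read 958 CPM at the low dose, 921 CPM at the medium dose and 1223 CPM at the high dose, whereas the 27 libraries of the other formulas and vehicle ran from 848 to 985 CPM. FADS2 read 543, 522 and 678 CPM over the same doses, against 473 to 607 CPM in the 27 libraries. FADS1 read 419, 431 and 512 CPM, against 396 to 463 CPM. For these 3 desaturases the high-dose library thus stood above all other libraries used here. The 95% Poisson interval at the high dose was 1211 to 1234 CPM for SCD, 670 to 687 CPM for FADS2 and 504 to 519 CPM for FADS1, which covers counting error only. The ratio of the high to the low dose was 1.28 for SCD, 1.25 for FADS2 and 1.22 for FADS1. These were the 3 members of 10 past 1.2-fold upward, a size chosen after the values were seen, and 3.35% of the 11193 genes whose mean log2 CPM reached 2 were past it. ACSS2 was also at its highest there, with 65.0 CPM, against 48.0 to 62.1 CPM in the 27 libraries. FASN read 1297, 1329.8 and 1354 CPM from the low to the high dose, still below the vehicle. ELOVL6, at 87.1, 84.9 and 90.4 CPM, did not have the step down seen at the high dose of the other formulas. ACACA, at 267, 259 and 269.6 CPM, did not fall either. Its fall passed in Sibjeondaebo-tang, passed in Palmul-tang only with all libraries kept, and missed the threshold in Samul-tang. The highest ELOVL6 value among the 8 other high-dose extract libraries was 79.8 CPM, and the highest ACACA value was 247 CPM. Whether another culture would show the same cannot be told from 1 library.

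Over the 13 group means, SCD was correlated with FADS1 at r = 0.95 and with FADS2 at r = 0.89. Without high-dose Sagunja-tang these were 0.72 and 0.74. FASN was correlated with SREBF1 at r = 0.76 over all groups and at 0.20 over the 12 extract groups. ACACA with ELOVL6 stayed at 0.96 in either subset. The genes outside the family whose group means most resembled SCD were FDPS (r = 0.92), FDFT1 (0.90), ARIH2 (0.87), CDH16 (0.84) and NLRP2 (0.82). FDPS and FDFT1 are enzymes of cholesterol synthesis. Without high-dose Sagunja-tang the r with SCD was 0.20 for FDPS, 0.26 for FDFT1, 0.49 for ARIH2, 0.41 for CDH16 and 0.60 for NLRP2. Those most like FASN were EPHA2 (0.97), FJX1 (0.96), DVL1 (0.96), HSPG2 (0.94) and NCKAP5L (0.94). These are descriptions over groups that share depth and scaling, with no test.

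Neighbouring pathways were counted in lists, as the number that passed between the high and the low dose and the median log2 change. In Sibjeondaebo-tang 18.5% of all genes rose and 19.9% fell, with a median of -0.01 over all genes. In Palmul-tang 1.46% rose and 2.02% fell, and in Samul-tang 0.604% rose and 0.74% fell. These shares belong beside every list count between the high and the low dose. The list genes were not rerun with a library left out or in another fit. Of 15 enzymes that work beside the elongases and desaturases, 6 rose and 1 fell in Sibjeondaebo-tang, with a median of 0.15. CYB5A, which gives electrons to the desaturases, averaged 124 ± 5.57 CPM at the high dose and 99.7 ± 2.37 CPM at the low dose (log2 change 0.32, adjusted p = 6.87e-07). TECR, which completes the elongation cycle, rose by 0.34 (adjusted p = 0.000915), and HACD2, a dehydratase of that cycle, fell, at -0.13 (adjusted p = 0.00923). In Palmul-tang 1 of the 15 was higher and 1 lower, CYB5A at 0.19 (adjusted p = 0.00805) and HACD2 at -0.16 (adjusted p = 0.0212). In Samul-tang 0 of the 15 passed in edgeR's test.

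Of 13 tested suppliers of carbon and NADPH, 8 rose and 2 fell in Sibjeondaebo-tang, with a median of 0.13. PGD, an NADPH source of the pentose phosphate pathway, averaged 1586 ± 46.0 CPM at the high dose and 1277 ± 26.0 CPM at the low dose (log2 change 0.31, adjusted p = 5.72e-08), and ME1, the cytosolic malic enzyme, rose by 0.20 (adjusted p = 0.000163). ACSS1, the mitochondrial acetate enzyme, fell, at -0.42 (adjusted p = 1.28e-05), and so did ACACB, the mitochondrial carboxylase, at -0.30 (adjusted p = 0.000188). PGD also rose in Palmul-tang (log2 change 0.13, adjusted p = 0.045), as the only one of the 13. In Samul-tang 2 of the 13 rose, among them PGD (log2 change 0.19, adjusted p = 0.031), and 0 fell. Neither of these PGD calls was rerun with a library left out, and the one in Samul-tang rests on 2 libraries per dose.

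Cholesterol synthesis and uptake, the other branch under SREBP control, had 6 higher and 3 lower of 20 with the dose of Sibjeondaebo-tang, 0 higher and 4 lower with Palmul-tang, and 0 higher and 1 lower with Samul-tang. Of all genes 18.5% were higher and 19.9% lower with Sibjeondaebo-tang, 1.46% and 2.02% with Palmul-tang, and 0.604% and 0.74% with Samul-tang. HMGCS1, an early enzyme of the pathway, fell in all 3. In Sibjeondaebo-tang it averaged 196 ± 7.46 CPM at the high dose and 224 ± 7.50 CPM at the low dose (log2 change -0.19, adjusted p = 0.000573). For Palmul-tang the change was -0.25 (adjusted p = 0.000253) and for Samul-tang -0.30 (adjusted p = 0.00102). DHCR7, which makes cholesterol in the last step, rose in Sibjeondaebo-tang (log2 change 0.27, adjusted p = 1.17e-05). Between the formulas at the high dose 13 of the 20 were higher in Sibjeondaebo-tang than in Palmul-tang and 0 lower, with a median difference of 0.16. Over all genes 14.3% were higher and 16% lower, with a median of -0.0013. MSMO1 (log2 change 0.29, adjusted p = 0.000121) and DHCR7 (log2 change 0.23, adjusted p = 0.000159), both late enzymes, were among them. The 10 fatty acid genes had 3 higher, 0 lower and a median of 0.09 in the same comparison. In the lone high-dose Sagunja-tang library 6 of the 20 were past the 1.2-fold chosen after the values were seen, upward over the low dose, where 3.35% of the 11193 genes were higher by that much and 4.48% lower. They include FDPS with 164 CPM at the high dose and 125 CPM at the low dose.

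**Figure D4:**
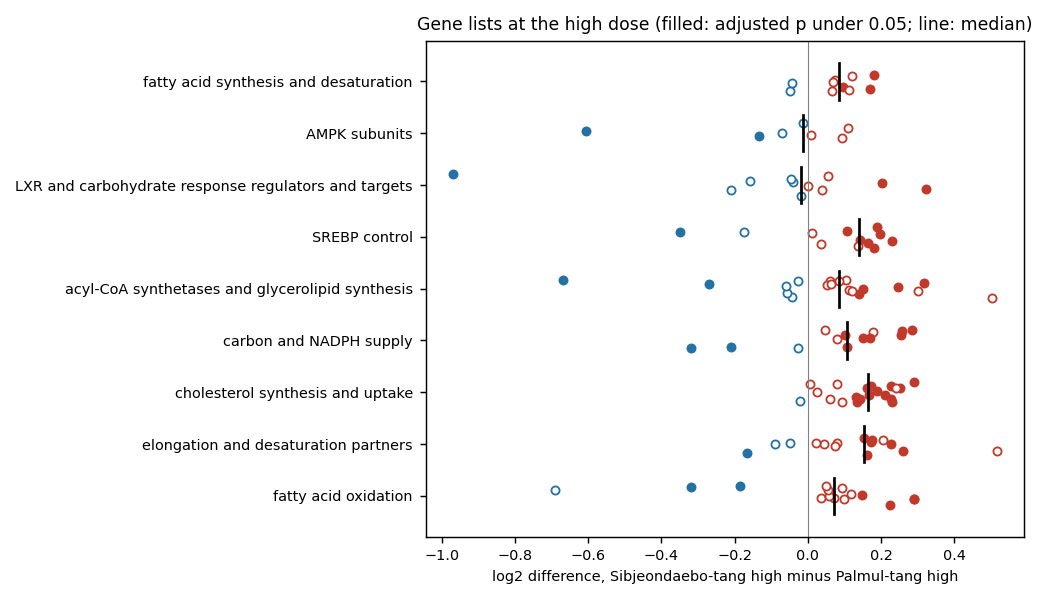
Log2 difference of each tested gene between high-dose Sibjeondaebo-tang and high-dose Palmul-tang, by gene list, with filled points where the adjusted p was under 0.05, red above and blue below zero, and a line at the list median. The fatty acid genes lie mostly right of zero with a median of 0.09, and the cholesterol list lies further right with a median of 0.16 and no filled point left of zero.

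Regulators around SREBF1 were counted as well. For scale, 18.5% of all genes rose and 19.9% fell with the dose of Sibjeondaebo-tang. The shares were 1.46% and 2.02% for Palmul-tang, and 0.604% and 0.74% for Samul-tang. Of 12 genes of SREBP control, 4 rose and 1 fell with the dose of Sibjeondaebo-tang, 0 rose and 1 fell with Palmul-tang and 0 rose and 1 fell with Samul-tang. SCAP, the escort of SREBPs, averaged in Sibjeondaebo-tang 71.6 ± 1.75 CPM at the high dose and 62.0 ± 2.85 CPM at the low dose (log2 change 0.21, adjusted p = 0.00109), and STARD4, a sterol carrier, fell, at -0.56 (adjusted p = 5.37e-07). INSIG1, which holds SCAP back, fell with Palmul-tang (log2 change -0.20, adjusted p = 0.00369). Against vehicle at the high dose, 5 of the 12 were higher and 3 lower for Sibjeondaebo-tang, 4 and 4 for Palmul-tang, and 4 and 4 for Samul-tang. Of all genes 41.8%, 37.1% and 29.2% passed there in either direction, and library prefix and treatment cannot be told apart. Among the lower genes was INSIG1, in Sibjeondaebo-tang (log2 change -0.43, adjusted p = 8.61e-10), Palmul-tang (log2 change -0.58, adjusted p = 1.31e-11) and Samul-tang (log2 change -0.55, adjusted p = 3.13e-09). Of 11 tested LXR and carbohydrate-response genes, 3 rose and 1 fell with Sibjeondaebo-tang, 1 rose with Palmul-tang and 1 rose with Samul-tang. LPCAT3, a phospholipid enzyme and LXR target, rose in each, by 0.38 (adjusted p = 7.36e-08) in Sibjeondaebo-tang, 0.31 (adjusted p = 2.43e-05) in Palmul-tang and 0.33 (adjusted p = 0.000608) in Samul-tang. MLXIPL, which encodes the glucose-responsive factor ChREBP, fell in Sibjeondaebo-tang, with 1.53 ± 0.191 CPM at the high dose and 3.21 ± 0.345 CPM at the low dose (log2 change -1.06, adjusted p = 2.86e-06). Of 7 AMPK genes (its subunits and STK11), whose kinase inhibits the carboxylases, 0 rose and 2 fell with Sibjeondaebo-tang, PRKAB2 at -0.53 (adjusted p = 1.04e-09) and PRKAA1 at -0.14 (adjusted p = 0.0132). In Palmul-tang and Samul-tang 0 of the 7 passed in edgeR's test.

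Of 19 tested acyl-CoA synthetase and glycerolipid genes, 6 rose and 4 fell with the dose of Sibjeondaebo-tang, 2 rose and 2 fell with Palmul-tang, and 1 rose with Samul-tang. Over all genes 18.5% rose and 19.9% fell with Sibjeondaebo-tang, 1.46% and 2.02% with Palmul-tang, and 0.604% and 0.74% with Samul-tang. PLIN2, which coats lipid droplets, rose in each. In Sibjeondaebo-tang it averaged 73.1 ± 2.26 CPM at the high dose and 54.7 ± 3.57 CPM at the low dose (log2 change 0.42, adjusted p = 9.68e-09), with changes of 0.24 (adjusted p = 0.000885) in Palmul-tang and 0.33 (adjusted p = 0.000641) in Samul-tang. The phosphatidate phosphatases LPIN1 (log2 change -0.38, adjusted p = 3.15e-08) and LPIN3 (log2 change -0.94, adjusted p = 2.82e-07) fell in Sibjeondaebo-tang. Of 15 genes of fatty acid oxidation, 7 rose and 2 fell with Sibjeondaebo-tang, 1 rose with Palmul-tang and 1 rose with Samul-tang. CPT1A, the gatekeeper of mitochondrial oxidation, averaged in Sibjeondaebo-tang 63.8 ± 2.37 CPM at the high dose and 48.7 ± 0.814 CPM at the low dose (log2 change 0.39, adjusted p = 8.25e-08), and rose by 0.32 (adjusted p = 4.08e-05) in Palmul-tang. ANGPTL4, counted in that list but a secreted inhibitor of lipoprotein lipase, rose in Sibjeondaebo-tang (log2 change 0.35, adjusted p = 0.000114) and in Samul-tang (log2 change 0.45, adjusted p = 0.00223). ACADVL, the very-long-chain dehydrogenase of oxidation, fell in Sibjeondaebo-tang (log2 change -0.29, adjusted p = 1.44e-06).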

How the data were processed

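RNA-seq libraries of A549 cells were compared as gene-level expected counts that the authors deposited. Per the submitters' processing notes the tools were FastQC 0.11.9, Trim Galore 0.6.5, STAR 2.7.3a and RSEM 1.3.3, with GRCh38; the annotation release and strand setting are not given in the sources used here. RSEM divides reads shared by several genes, and 8.5% to 9.82% of the deposited expected counts per library were not whole. These were rounded. The table holds 240 further columns of per-sample values, which were not used.

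Genes passing edgeR's expression filter (17701) were scaled by TMM (factors 0.923 to 1.05) and fitted with edgeR 4.0.16 in R 4.3.3, as 1 mean per group over 30 libraries (17 residual degrees of freedom). The quasi-likelihood test was two-sided, with Benjamini-Hochberg adjustment over all tested genes. Fits were tested on simulated data. Symbols and coordinates came from GENCODE 29. Replicates within groups correlated at 0.990 to 0.993, and none agreed within sampling noise (chi-square per degree of freedom 2.34 to 21.4).

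The genes and lists were chosen with earlier results of these data known. All 10 genes were named, and from each list mainly those with the smallest adjusted p. Genes most like SCD or FASN were the 5 with the highest Pearson r of group means among genes whose mean log2 CPM reached 2. Intervals cover counting error only where called Poisson. Alternatives were another scaling, no filter, a replicate block, only the groups compared, DESeq2 1.42.0, raw totals and each library left out. Fits without mitochondrial genes, without vehicle or without high-dose Sibjeondaebo-tang were added after seeing the data.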

Additional observations from a re-analysis of the deposited data

Results flagged for a closer look

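The dose change of FASN, fatty acid synthase, differed between 2 formulas in a test of the difference itself. The change between the high and the low dose was larger in Sibjeondaebo-tang than in Palmul-tang by 0.23 on the log2 scale (SE 0.07, adjusted p = 0.0148, edgeR's quasi-likelihood test). Means in Sibjeondaebo-tang were 1264 CPM at the high dose and 1221 CPM at the low dose, and in Palmul-tang 1115 CPM at the high dose and 1266 CPM at the low dose. Without replicate 1 of high-dose Palmul-tang the adjusted p was 0.0605. Of the 10 members 1 passed in this comparison, against 14.9% of all genes (5.59% higher and 9.29% lower), so such a difference was not rare.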

How the results depend on the processing

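The labels do not say that a replicate number marks a shared culture or day. The 111 pairs with the same number had a median correlation of 0.00614 in their deviations from group means (-0.122 to 0.0886), and 16 of 27 libraries were closest to their own number. With the number as a block, the count of members whose dose change differed between Sibjeondaebo-tang and Palmul-tang was 2 in place of 1. FADS2 was added (adjusted p = 0.0479). In that fit the log2 change of SCD in low-dose Samul-tang against vehicle changed sign to 0.0155. It missed the threshold (adjusted p = 0.832).

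The same count was 2 with RLE scaling and with DESeq2. Without a filter 0 members passed between the doses of Samul-tang (ELOVL6 adjusted p = 0.0691) and 5 between high-dose Sibjeondaebo-tang and Palmul-tang. With only the groups compared, 2 passed between the doses of Palmul-tang, FASN (adjusted p = 0.0967) and ACACA (0.122) being lost. With 1 library left out the counts ran from 2 to 4 for the doses of Sibjeondaebo-tang, 2 to 3 for Palmul-tang and 0 to 0 for Samul-tang. They ran from 2 to 4 between high-dose Sibjeondaebo-tang and Palmul-tang, and from 0 to 2 for the difference of their dose changes. Against vehicle at the high dose they ran from 3 to 4 for Sibjeondaebo-tang, 5 to 5 for Palmul-tang and 4 to 5 for Samul-tang. The cause was not tested. A left-out Samul-tang library leaves 1 in its group, which is then assumed to vary like the others.

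Of the log2 changes recomputed, 1425 kept direction and side of the threshold, 64 lost the call, 26 gained one and 65 changed sign. None of the 65 passed in either fit, and the largest was 0.0438 in size. ACLY between the doses of Sibjeondaebo-tang was 0.00415 (RLE), 0.0187 (no filter), 0.0021 (no mitochondrial genes) and 0.00531 (DESeq2), and ELOVL5 was 0.000413 (no filter). SREBF1 between the doses of Palmul-tang was -0.00304 (no filter), and ACACA in high-dose Sibjeondaebo-tang against vehicle 0.00244 (no filter). ACSS2 in low-dose Sibjeondaebo-tang against vehicle was 0.000782 (RLE), 0.00963 (no filter), 0.00136 (only the groups compared), 0.000538 (no mitochondrial genes) and 0.00226 (DESeq2). SCD at the low dose against vehicle was 0.00135 (RLE), 0.00564 (no filter) and 0.00242 (DESeq2) for Palmul-tang, 0.000275 (RLE) and 0.00138 (DESeq2) for Samul-tang, and 0.00215 (no filter) for Sibjeondaebo-tang.

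With 1 library left out, the log2 changes that crossed zero had these ranges. For Sibjeondaebo-tang high minus vehicle, -0.0798 to 0.0196 for ACACA and -0.0621 to 0.00428 for ELOVL6. For Palmul-tang high minus vehicle, -0.0353 to 0.0641 for ACACA, -0.0306 to 0.00634 for SCD and -0.0316 to 0.0372 for ELOVL6. For Samul-tang high minus vehicle, -0.0102 to 0.0892 for ACACA, -0.0265 to 0.0519 for ELOVL6 and -0.0360 to 0.0227 for FADS1. For Sibjeondaebo-tang low minus vehicle, -0.0434 to 0.0151 for SCD and -0.0419 to 0.0438 for ACSS2. For Palmul-tang low minus vehicle, -0.0404 to 0.0262 for SCD, -0.0133 to 0.0640 for FADS1 and -0.0300 to 0.0573 for ACSS2. For Samul-tang low minus vehicle, -0.0173 to 0.0197 for SCD and -0.0670 to 0.0181 for ACSS2. For Samul-tang high minus low, -0.104 to 0.0371 for ELOVL5, -0.0705 to 0.00582 for FADS2 and -0.0264 to 0.212 for SREBF1. For Palmul-tang high minus low, -0.0423 to 0.0243 for SCD, -0.00523 to 0.0694 for FADS1 and -0.0360 to 0.0332 for SREBF1. For Sibjeondaebo-tang high minus Palmul-tang high, -0.0726 to 0.00502 for ELOVL6. For the difference of the dose changes, -0.0800 to 0.000316 for ELOVL6. For Sibjeondaebo-tang high minus low, -0.00667 to 0.0412 for ACLY and -0.0445 to 0.0288 for ELOVL5.

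On raw totals in place of scaled ones, 39 of 100 group means moved by over 1 SD. Comparisons with the medium dose were not rerun, and neither were the genes of the neighbouring lists. Samul-tang, with 2 libraries per group, has the widest intervals.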
